A study of Mus musculus with 6 samples.

Results

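The 10 genes described here encode mesenchymal transcription factors and form 5 paralogue pairs, *Twist1* and *Twist2*, *Prrx1* and *Prrx2*, *Meox1* and *Meox2*, *Foxc1* and *Foxc2*, and *Osr1* and *Osr2*. They were taken by name from the 24421 rows of a bulk RNA sequencing matrix, and each name matched a single row. The matrix holds 6 libraries of live GFP+ cells sorted from 129S6/SvEv mice aged 8 weeks, out of the root and the ascending segment of the aorta. All libraries are marked WT in the matrix, and all mice carried the conditional *CAG-Sun1/sfGFP* tracer, which labels the nuclei of cells that have expressed a Cre recombinase and of their descendants. In 3 libraries the tracer was switched on by *Mef2cSHF* Cre, which marks the secondary heart field (SHF), and in 3 by *Wnt1-Cre2*, which marks the cardiac neural crest (CNC). Cre marks where a cell came from and not what it has become, so each library can hold several cell types. The 3 libraries of a lineage are biological replicates, and whether each came from 1 mouse or from several is not given in the sources used here.

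Mesenchymal transcription factors are switched on when cells leave an epithelium, the neural crest or the paraxial mesoderm and become migratory connective tissue precursors, and several of them stay on in adult fibroblasts and mural cells. Twist proteins are basic helix-loop-helix (bHLH) factors that bind the E-box as dimers with E proteins, and Id proteins compete for the same partners. Prrx and Meox proteins carry homeodomains, Foxc proteins a forkhead domain, and Osr proteins C2H2 zinc fingers. During development *Foxc1* and *Foxc2* are needed for remodelling of the aortic arch, *Prrx1* and *Prrx2* together for the great arteries, and *Osr1* for the posterior part of the secondary heart field.

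Since sequencing reads are short, the first question was how far the paralogues can be told apart by sequence. The coding sequences of GENCODE M21 transcripts were identical at 82.4% of aligned bases for *Twist1* and *Twist2*, 72.1% for *Foxc1* and *Foxc2*, 69.1% for *Osr1* and *Osr2*, 67.7% for *Prrx1* and *Prrx2*, and 62.2% for *Meox1* and *Meox2*. The longest run of bases without a difference was 53 bases in the Foxc pair, 23 in the Twist pair, 23 in the Osr pair, 19 in the Prrx pair and 12 in the Meox pair. The runs of the 3 pairs that share the most are shown because a fragment that falls wholly inside such a run fits both genes and is shared out by the estimation program. They are written from 5′ to 3′ with 15 bases of each gene on both sides in lower case, and the shared run is in capitals.
Twist1: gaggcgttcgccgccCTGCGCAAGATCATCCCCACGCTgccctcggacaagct
Twist2: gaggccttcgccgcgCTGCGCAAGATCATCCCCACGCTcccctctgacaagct
Foxc1: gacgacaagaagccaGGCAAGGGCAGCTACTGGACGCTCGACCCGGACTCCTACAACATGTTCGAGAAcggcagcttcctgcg
Foxc2: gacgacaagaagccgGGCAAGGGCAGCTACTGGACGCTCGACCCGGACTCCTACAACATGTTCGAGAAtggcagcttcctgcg
Osr1: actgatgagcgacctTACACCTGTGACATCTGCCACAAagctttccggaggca
Osr2: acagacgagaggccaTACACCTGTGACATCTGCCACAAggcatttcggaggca
Outside these runs every pair differs at many positions, and no run spans more than a small part of a coding sequence, which is from 483 bases in *Twist2* to 1662 bases in *Foxc1*. *Twist2* is the only gene of the 10 whose exons overlap those of another annotated gene, the antisense gene *Gm29100*. The library kit does not mark the strand, so that reads from *Gm29100* could count for *Twist2* there.

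Levels were deposited as TPM, a transcript level relative to the whole library, corrected for transcript length and scaled to the same total in each library. They can be compared between genes, but they keep no record of sequencing depth, so no detection limit can be given. Of the 10 genes, 6 were above 0 in all 6 libraries, namely *Osr1*, *Prrx1*, *Twist2*, *Meox1*, *Meox2* and *Osr2*. The other 4 were listed at 0 in some library, *Foxc2* in 1, *Twist1* in 3, *Foxc1* in 3 and *Prrx2* in 5. A value of 0 is not read as absence, because 27.4% of the 7444 genes that averaged 10 TPM or more had a 0 somewhere too. By the median over the 6 libraries the order of the levels was *Osr1* (184.54 TPM), *Prrx1* (81.48 TPM), *Twist2* (62.55 TPM), *Meox1* (44.39 TPM), *Meox2* (41.9 TPM), *Osr2* (25.93 TPM) and *Foxc2* (25.58 TPM), with *Twist1*, *Foxc1* and *Prrx2* below 1 TPM. *Osr1* was above *Prrx1* in 6 of 6 libraries. *Meox2* was above *Osr2* in 5 of 6 and *Foxc2* above *Twist1* in 5 of 6. Other neighbours changed places more often, with *Prrx1* above *Twist2* in 4 of 6 libraries, *Twist2* above *Meox1* in 4 of 6, *Meox1* above *Meox2* in 3 of 6 and *Osr2* above *Foxc2* in 3 of 6. The median rank of *Osr1* among all genes was 1000, with its best rank, 516, in CNC replicate 3.

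**Figure D1:**
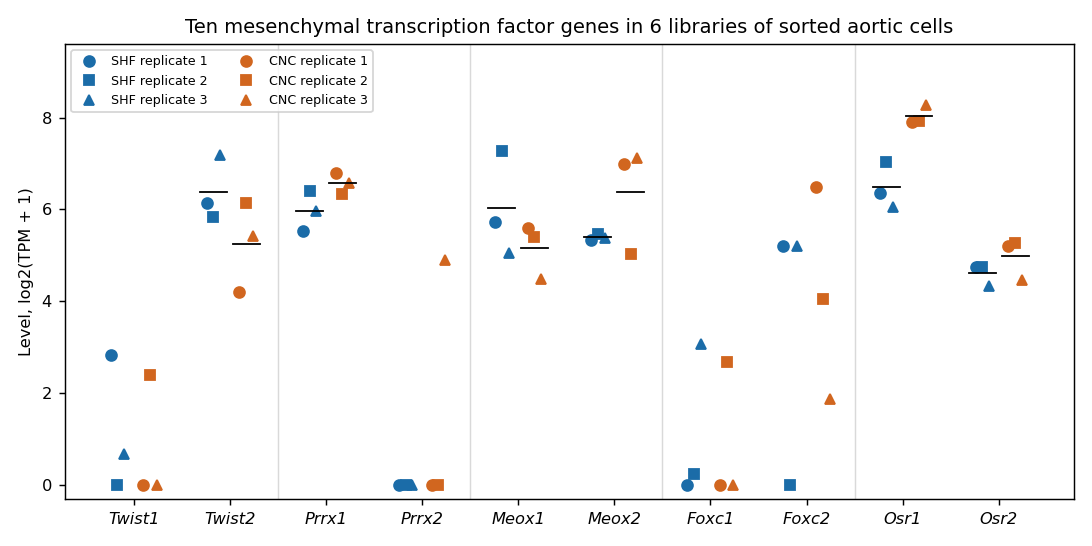
Level of each gene as log2(TPM + 1) in the 3 SHF (blue) and 3 CNC (orange) libraries, with a marker shape per replicate and a black line at the lineage mean for genes above 0 in all libraries. The CNC libraries lie above the SHF libraries for Osr1, while the lineages overlap for the other 9 genes, and Twist1, Prrx2, Foxc1 and Foxc2 have libraries at 0.

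The 5 pairs were then compared between the lineages, with the values of each gene given in the order of replicates 1, 2 and 3. *Osr1*, a zinc finger factor of nephrogenic and lateral plate mesoderm that also marks connective tissue progenitors, was higher in each CNC library than in each SHF library. It had 80.78, 130.36 and 64.88 TPM in SHF against 238.73, 240.8 and 308.94 TPM in CNC. The lowest CNC library was thus above the highest SHF library. The means were 92 ± 34.2 TPM (SD, n = 3) in SHF and 262.8 ± 40 TPM (SD, n = 3) in CNC, a ratio of 2.86. On the log2(TPM + 1) scale the difference was -1.56 with a standard error of 0.4 and a 95% interval from -2.43 to -0.68 (SHF minus CNC). It did not pass the limma test after Benjamini-Hochberg adjustment over the 10185 genes tested (adjusted p = 0.482), in which no gene passed (0%). Its unadjusted limma p of 0.0024 ranked 50 among these genes, of which 5.86% had an unadjusted p under 0.05. The exact two-sided permutation test of *Osr1* gave p = 0.1, the smallest that 3 libraries against 3 allow. Of all genes tested, 11.8% had lineages that did not overlap, and 5.68% were of this kind with the CNC libraries above.

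*Osr2*, the paralogue known for its part in the palate and the synovial joints, did not separate the lineages. It had 26.01, 25.85 and 19.29 TPM in SHF against 35.73, 37.74 and 20.96 TPM in CNC. CNC replicate 3, which had the most *Osr1*, had the least *Osr2* of its lineage and lay among the SHF libraries. The difference was -0.36 with a standard error of 0.73 on the log2 scale (limma adjusted p = 0.947). It was -0.62 without CNC replicate 3, -0.21 without CNC replicate 2 and -0.23 without SHF replicate 3. Its largest value was 1.96 times its smallest, the narrowest range of the 6 genes that were above 0 in every library. On GRCm38, *Osr1* lies on chromosome 12 from 9570116 to 9581500 and *Osr2* on chromosome 15 from 35296098 to 35303305, and each has 3 exons. *Osr1* made up 75.6%, 83.5% and 77.1% of the summed TPM of the pair in SHF replicates 1, 2 and 3 and 87%, 86.5% and 93.6% in the CNC replicates. This share is taken within a library and does not depend on its total. Its highest SHF value, 83.5%, and its lowest CNC value, 86.5%, were close, and since *Osr1* itself did not overlap while *Osr2* did, it adds no separate result.

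The markers of the cell types that a sort for a lineage could hold were examined beside *Osr1*. The summed level of 10 fibroblast markers was from 29221.1 to 32483.8 TPM in the SHF libraries and from 40268.6 to 54797.7 TPM in the CNC libraries, and it was from 10 to 36.5 times that of 12 smooth muscle markers. All 10 fibroblast markers had a higher mean log2 level in CNC, and 6 of the 10 did not overlap between the lineages, *Col1a1*, *Col1a2*, *Col3a1*, *Pi16*, *Clec3b* and *Serpinf1*, with CNC above, as did 5.68% of all genes tested, but none passed after adjustment. *Dcn*, the most abundant of them, had 11604.17, 12756.16 and 12481.85 TPM in SHF against 12053.58, 14862.93 and 13408.11 TPM in CNC, so that the lineages overlapped. *Col3a1* had 8545.71, 6770.29 and 8644.03 TPM in SHF against 17543.69, 9250.11 and 16137.56 TPM in CNC. *Col1a1* had 4541.34, 4004.56 and 4396.34 TPM in SHF against 11791.92, 7322.3 and 12778.1 TPM in CNC. The gap in the sum thus lay largely in these collagens, and the sum is not read as a measure of fibroblast share alone. *Tcf21*, an epicardial and fibroblast factor outside this list, went the other way. It had 294.64, 237.95 and 530.64 TPM in SHF against 57.62, 105.68 and 47.98 TPM in CNC. Its SHF libraries were all above its CNC libraries, which 6.11% of all genes tested had, and it did not pass after adjustment. In bulk samples a different share of a cell type and a different RNA level per cell cannot be told apart. Per 1000 TPM of the summed fibroblast markers, *Osr1* had 2.57, 4.46 and 2 TPM in SHF against 4.57, 5.98 and 5.64 TPM in CNC. The lineages did not overlap on this scale, on which 18.7% of all genes tested did not, and the highest SHF and the lowest CNC library were close. With all libraries rescaled to the same fibroblast marker sum, a setting chosen after the data were seen, the difference in *Osr1* was -0.91 (limma adjusted p = 0.445). This rescaling moved the median of all genes tested from 0.02 to 0.59, against which its values are to be read. The part of the fibroblast share in the difference was not tested.

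**Figure D2:**
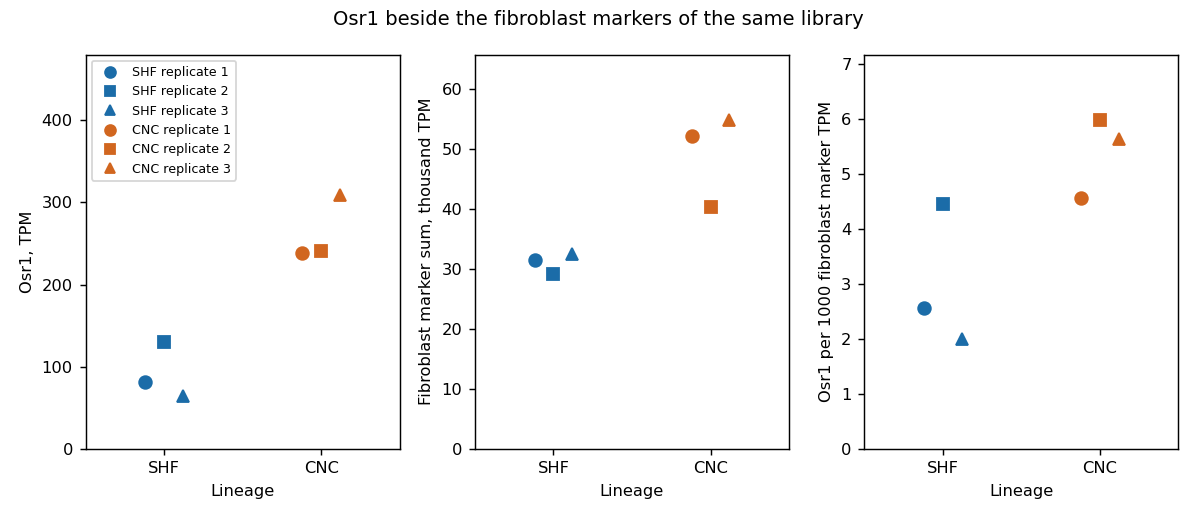
Osr1 in TPM, the summed level of 10 fibroblast markers in units of 1000 TPM, and Osr1 per 1000 TPM of these markers, in the 3 SHF (blue) and 3 CNC (orange) libraries. The CNC libraries are above the SHF libraries in each panel, and they come closest in the ratio, with 4.46 in SHF replicate 2 and 4.57 in CNC replicate 1.

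Other markers also differed between libraries. The endothelial markers summed to between 89.5 and 591 TPM in SHF and to between 37.6 and 61 TPM in CNC. *Pecam1* had 31.45, 147.51 and 141.59 TPM in SHF against 9.72, 37.86 and 19.81 TPM in CNC. *Emcn* had 11.59, 219.61 and 47.57 TPM in SHF and was listed at 0 in all CNC libraries, while *Cldn5*, with 0, 126.15 and 70.87 TPM in SHF, was also at 0 in all CNC libraries. Of the 7 endothelial markers tested, 2 did not overlap, with SHF above, as did 6.11% of all genes. SHF replicates 2 and 3 had 51.95 and 38.76 TPM of *Xist*, which was at 0 in the other 4 libraries, and these carried the Y-linked *Ddx3y*, so that sex and lineage cannot be fully told apart. Without the libraries that carried *Xist*, as SHF replicate 1 against the 3 CNC libraries, the difference in *Osr1* was -1.68 (limma adjusted p = 0.997, with the single SHF library assumed to vary like the others). Leukocyte markers summed to at most 33.3 TPM in SHF and 133 TPM in CNC, with *Ptprc*, *Adgre1* and *Cd3e* at 0 in all libraries. Schwann cell markers summed to at most 28 TPM in SHF and 102.7 TPM in CNC, with *Pmp2* at 0 in all libraries. Cardiomyocyte markers summed to between 87.4 and 116 TPM in SHF and to at most 37.9 TPM in CNC, with *Myl7* at 0 in all libraries. Of the tested genes of these lists, 6 of 7 endothelial, 1 of 4 leukocyte, 1 of 3 Schwann cell, 1 of 1 cardiomyocyte and 8 of 12 smooth muscle markers had the higher mean in SHF, and none passed after adjustment. The part of these cells in the values of the 10 genes was not tested.

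*Prrx1*, a paired-related homeodomain factor of limb and craniofacial mesenchyme, was the second most abundant gene of the 10. It had 45.56, 82.89 and 61.32 TPM in SHF against 110.13, 80.08 and 93.7 TPM in CNC. Only SHF replicate 2 and CNC replicate 2 crossed, and the ranges of the lineages met at about 80 TPM. The mean was 63.3 ± 18.7 TPM (SD, n = 3) in SHF against 94.6 ± 15 TPM (SD, n = 3) in CNC, and the difference of -0.6 (standard error 0.47) did not pass (limma adjusted p = 0.889). When the libraries were rescaled by median-of-ratios factors or by quantiles the lineages no longer overlapped, with CNC above SHF, and 11.8% and 11.7% of all genes tested did not overlap under these scalings. After rescaling to the same fibroblast marker sum the difference was 0.04, against a median of 0.59 over all genes. It was -0.39 without SHF replicate 1. *Prrx2* was at 29.02 TPM in CNC replicate 3 and listed at 0 in the other 5 libraries, which is not read as absence. *Prrx1* lies on chromosome 1 from 163245119 to 163313710 and *Prrx2* on chromosome 2 from 30834972 to 30881251.

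RefSeq promoter windows on GRCm38.p6 were found for 6 of the 10 genes, *Twist1*, *Twist2*, *Prrx1*, *Prrx2*, *Meox2* and *Foxc1*, and the 250 bases before the RefSeq start were searched on both strands for the letters that the families of these factors bind. RefSeq starts can differ from the GENCODE positions printed here. The *Prrx2* window, chr2:30845117-30845366, lies inside the gene as GENCODE places it, and the *Prrx1* and *Foxc1* windows reach into theirs. The E-box CANNTG occurs in 66.2% of 32851 such windows, the homeodomain core TAATTA in 4.8% and the forkhead motif GTAAACA in 3.2%. *Prrx1* holds a TAATTA from 173 to 168 bases before its start, and the other 5 windows hold none. GTAAACA occurs in none of the 6. The stretch of the *Prrx1* window around the match, on the minus strand at chr1:163313791-163313850, is shown with the match in capitals, since this is the only one of the 6 with the homeodomain letters searched.
Prrx1: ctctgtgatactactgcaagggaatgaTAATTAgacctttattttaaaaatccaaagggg
Only *Meox2* holds an E-box, CATGTG, whose first base is 82 bases before the start. The whole window, on the plus strand at chr12:37108290-37108539, is shown with the E-box in capitals, as the only one of the 6 with the bHLH letters searched.
Meox2: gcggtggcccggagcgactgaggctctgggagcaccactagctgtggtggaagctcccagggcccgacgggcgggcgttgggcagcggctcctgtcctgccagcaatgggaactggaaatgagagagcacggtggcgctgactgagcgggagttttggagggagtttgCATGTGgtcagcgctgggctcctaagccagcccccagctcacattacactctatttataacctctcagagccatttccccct
A match describes the sequence and does not show that a factor binds there.

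*Twist2*, also called Dermo1 and known in dermal and other mesenchymal precursors, was higher on average in SHF. It had 69.3, 55.8 and 143.76 TPM in SHF against 17.41, 69.64 and 41.85 TPM in CNC. SHF replicate 3 was highest and CNC replicate 1 lowest, but CNC replicate 2 lay within the SHF range. The mean was 89.6 ± 47.4 TPM (SD, n = 3) in SHF against 43 ± 26.1 TPM (SD, n = 3) in CNC, and the difference of 1.12 (standard error 0.66) did not pass (limma adjusted p = 0.874). It was 0.6 without CNC replicate 1 and 0.73 without SHF replicate 3. After rescaling to the same fibroblast marker sum the lineages no longer overlapped, with SHF above CNC, and under that scaling 18.7% of all genes tested did not overlap. *Twist1*, which acts in cranial neural crest and in epithelial-mesenchymal transition, had 6.15, 0 and 0.59 TPM in SHF against 0, 4.23 and 0 TPM in CNC. *Twist2* was the more abundant paralogue in 6 of 6 libraries and made up at least 91.8% of the pair. *Twist1* lies on chromosome 12 from 33957671 to 33959829 and *Twist2* on chromosome 1 from 91801461 to 91848028.

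*Meox1*, which with *Meox2* patterns the somites, also had a higher mean in SHF. It had 51.66, 154.51 and 32.41 TPM in SHF against 47.66, 41.12 and 21.44 TPM in CNC. SHF replicate 2 stood far above the next library, and the other 5 were mixed. Its difference of 0.86 (standard error 0.7) did not pass (limma adjusted p = 0.891), and it was 0.23 without SHF replicate 2, 0.52 without CNC replicate 3 and 1.34 without SHF replicate 3. *Meox2*, known as a growth arrest factor of vascular smooth muscle, went the other way. It had 39.52, 43.19 and 40.6 TPM in SHF against 125.88, 31.45 and 137.54 TPM in CNC. The SHF libraries agreed within 1.09 times, whereas CNC replicate 2 was below all of them and the other CNC libraries were far above. The difference was -0.98 with a standard error of 0.64 (limma adjusted p = 0.876), and it was -1.66 without CNC replicate 2, -0.61 without CNC replicate 3 and -0.34, against a median of 0.59 over all genes, after the fibroblast rescaling. Which of the pair was higher changed between libraries, with *Meox2* above *Meox1* in 3 of 6. *Meox1* lies on chromosome 11 from 101877510 to 101894374 and *Meox2* on chromosome 12 from 37108540 to 37179534.

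*Foxc2* and *Foxc1*, forkhead factors of paraxial mesoderm, lymphatic valves and the outflow tract, varied widely and had libraries at 0. *Foxc2* had 35.71, 0 and 35.69 TPM in SHF against 88.44, 15.46 and 2.66 TPM in CNC. It was thus both highest and nearly lowest within CNC, and the lineages overlapped widely. The difference was -0.67 with a standard error of 1.65 and a 95% interval from -4.29 to 2.96 (limma adjusted p = 0.96), and its sign rested on single libraries, since it was 1.07 without SHF replicate 2 and 0.51 without CNC replicate 1. *Foxc1* had 0, 0.19 and 7.39 TPM in SHF against 0, 5.37 and 0 TPM in CNC. *Foxc1* lies on chromosome 13 from 31806633 to 31812476 and *Foxc2* on chromosome 8 from 121116171 to 121118895, each beside other forkhead genes, and both have a single exon. Of these neighbours, *Foxf1* was at most at 2.25 TPM in any library, *Foxf2* at 1.82 TPM, *Foxl1* at 0.06 TPM, and *Foxq1* was listed at 0 in all 6, so that *Foxc2* was the only forkhead gene of either cluster above 10 TPM in a library. *Mthfsd*, which lies between *Foxf1* and *Foxc2* and is not a transcription factor, had 15.66, 0.54 and 16.56 TPM in SHF against 6.34, 9.78 and 20.2 TPM in CNC.

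Within the pairs, the same paralogue prevailed in both lineages in 4 of 5. *Twist2*, *Prrx1* and *Osr1* made up over 50% of their pair in 6 of 6 libraries and *Foxc2* in 5 of 6, with SHF replicate 2 the exception, where *Foxc1* alone was listed, at 0.19 TPM. The share of *Meox2* ran from 21.8% to 86.5%, with a mean of 40.3% in SHF and 67.5% in CNC, and the lineages overlapped.

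**Figure D3:**
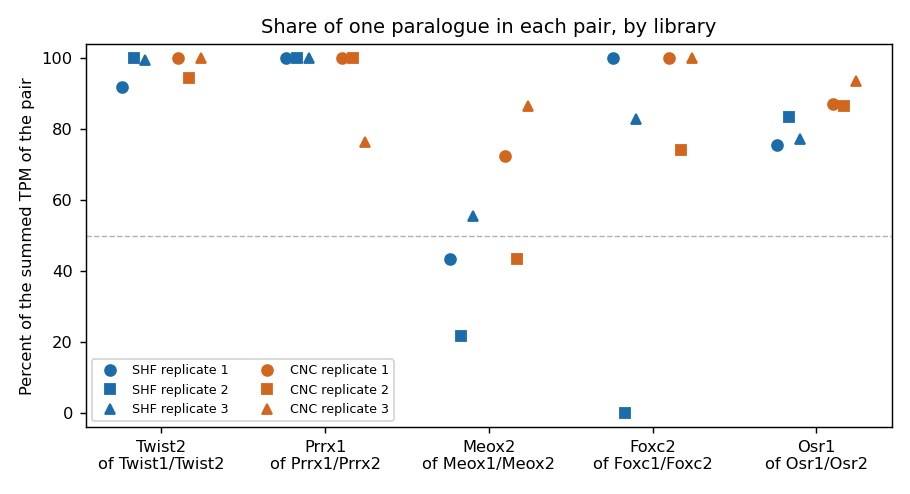
Share of the named paralogue in the summed TPM of its pair, in percent, for the 3 SHF (blue) and 3 CNC (orange) libraries, with a dashed line at 50%. Twist2, Prrx1 and Osr1 stay above the line in 6 of 6 libraries, Meox2 crosses it in both lineages, and Foxc2 falls to 0% in SHF replicate 2.

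The leading gene differed between libraries. *Osr1* was the highest of the 10 in all 3 CNC libraries and made up 36%, 45.8% and 47.1% of their summed level in CNC replicates 1, 2 and 3. In SHF the highest was *Osr1* in replicate 1 at 22.8% of the sum, *Meox1* in replicate 2 at 31.4% and *Twist2* in replicate 3 at 35.4%. Together the 10 genes reached 354.7, 492.8 and 405.9 TPM in SHF against 664, 525.9 and 656.1 TPM in CNC.

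Of the 10 genes, 7 reached at least 1 TPM in at least 3 libraries and were tested, and *Twist1*, *Prrx2* and *Foxc1* were not. None of the 7 passed after adjustment, and 1, *Osr1*, had an unadjusted p under 0.05, which 3.17% of all genes tested had in the direction of CNC and 2.69% in that of SHF. The means of 5 were higher in CNC and those of 2 in SHF. The median difference of the 7 was -0.6, against 0.02 over all genes tested. It was -0.25 without CNC replicate 1, -0.23 with library weights and, after the fibroblast rescaling, 0.04 against 0.59. The adjusted p-values of the 6 genes other than *Osr1* ran from 0.874 to 0.96, and their exact two-sided permutation p-values from 0.2 to 0.7. The intervals were wide, and for *Twist2*, for example, the 95% interval from -0.32 to 2.57 leaves both no difference and a large one.

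**Figure D4:**
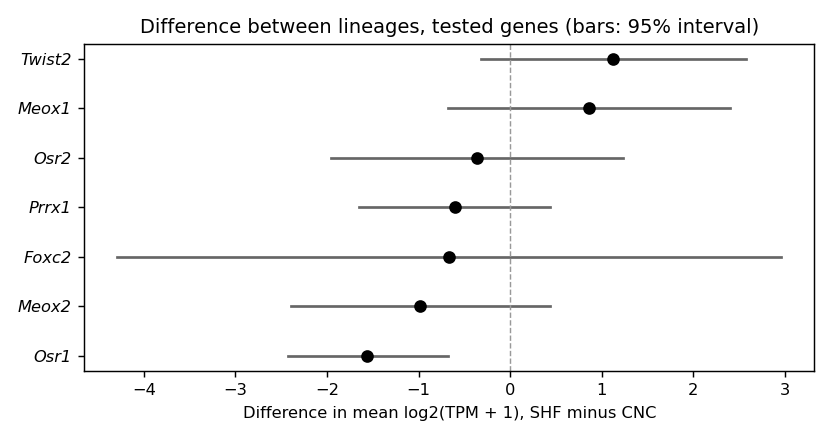
Difference in mean log2(TPM + 1) between the lineages, SHF minus CNC, for the 7 tested genes, as points with 95% limma intervals and a dashed line at 0. The interval of Osr1, from -2.43 to -0.68, is the only one of the 7 that does not hold 0, and that of Foxc2 is the widest.

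Genes that work with these factors were taken as lists. Among the bHLH partners and Id inhibitors, 7 of 9 genes were tested, none passed after adjustment, and 6 had a higher mean in SHF and 1 in CNC, with a median difference of 0.42. *Id3*, an inhibitor of bHLH dimers, was the most abundant, at 1270.51, 961.83 and 1127.95 TPM in SHF replicates 1, 2 and 3 and at 674.21, 788.07 and 1011.12 TPM in CNC. *Id2*, of the same class, had 193.34, 155.33 and 96.98 TPM in SHF against 91.06, 67.41 and 82.78 TPM in CNC, and its lineages did not overlap (limma adjusted p = 0.874). *Id1* had 77.57, 84.1 and 26.87 TPM in SHF against 60.7, 43.4 and 27.28 TPM in CNC. *Id3* was thus well above *Twist2* in all 6 libraries, and *Hand1*, a dimer partner of Twist1, was at 0 in all of them.

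Of the Pbx, Meis and Pknox homeodomain cofactors, 6 of 9 genes were tested and none passed, with 4 higher in SHF, 2 higher in CNC and a median difference of 0.72. This median was 0.14 without SHF replicate 2, 0.31 without CNC replicate 1, 1.45 without SHF replicate 1 and -0.42 in the libraries without *Xist*. *Meis1* had 37.94, 17.9 and 47.23 TPM in SHF against 16.45, 66.84 and 83.3 TPM in CNC. *Meis2* had 6.02, 43.52 and 34.53 TPM in SHF against 2.92, 29.18 and 31.51 TPM in CNC. *Pknox1* had 4.63, 39.41 and 17.42 TPM in SHF against 23.73, 23.66 and 0 TPM in CNC. The lineages overlapped for all 3.

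In the list of 26 other mesenchymal transcription factors, 15 were tested and none passed after adjustment. The means of 14 were higher in SHF and that of 1 in CNC, with a median difference of 0.65 (0.27 without CNC replicate 1), while 51.2% of all genes tested had the higher mean in SHF. *Tcf21*, an epicardial and fibroblast bHLH factor, was the most abundant, at 294.64, 237.95 and 530.64 TPM in SHF replicates 1, 2 and 3 and at 57.62, 105.68 and 47.98 TPM in CNC. Each SHF library was above each CNC library, and the difference was 2.31 with a standard error of 0.46 (limma adjusted p = 0.475). *Sox9*, a factor of cartilage and valve mesenchyme, had 93.63, 132.65 and 59.27 TPM in SHF against 52.59, 43.81 and 31.95 TPM in CNC, also without overlap (limma adjusted p = 0.874). *Msx1*, a homeobox gene of neural crest mesenchyme, had 130.77, 322.64 and 59.57 TPM in SHF against 147.75, 133.41 and 120.27 TPM in CNC, with overlap. In all, 4 of the 15 had SHF libraries above all CNC libraries, which 6.11% of all genes tested had, and none had the reverse. Another 7 genes of the list, among them *Alx1*, *Alx4* and *Shox2*, were at 0 in all 6 libraries.

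Of 12 genes reported as targets of these factors, 10 were tested and none passed, with 8 higher in SHF, 2 higher in CNC and a median difference of 0.39 (0.23 without CNC replicate 1). *Postn*, the matrix protein periostin that Twist1 can activate, had 610.8, 643.8 and 307.43 TPM in SHF against 314.1, 414.26 and 240.63 TPM in CNC. *Cxcl12*, a chemokine that depends on Foxc1 in bone marrow stroma, had 807.82, 740.41 and 1146.13 TPM in SHF against 553.2, 1439.12 and 681.12 TPM in CNC, and *Foxc1* itself was under 10 TPM in each library. *Vim*, the mesenchymal intermediate filament, had 6501.73, 9784.9 and 5467.2 TPM in SHF against 5333.17, 5829.13 and 6172.01 TPM in CNC. The lineages overlapped for these 3 genes, and *Cdkn2a*, which Meox2 can induce, was at 0 in all libraries.

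**Figure D5:**
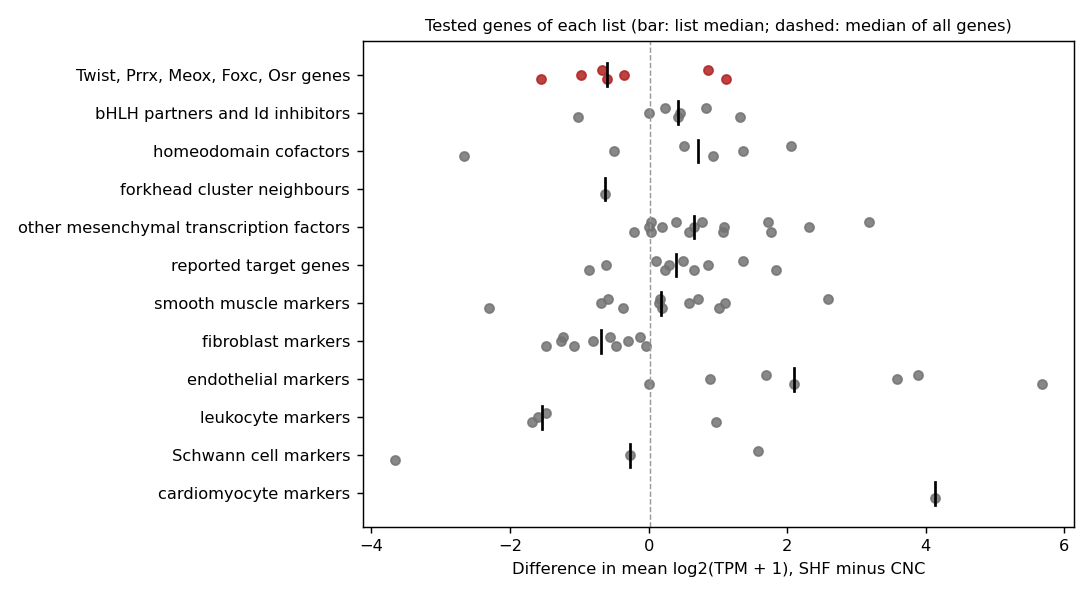
Difference in mean log2(TPM + 1), SHF minus CNC, of each tested gene, by list, with the 7 tested Twist, Prrx, Meox, Foxc and Osr genes in red, a black bar at each list median and a dashed line at the median of all genes tested, 0.02. The list medians are -0.6 for the red genes and -0.68 for the fibroblast markers, against 0.65 for the other mesenchymal transcription factors and 2.1 for the endothelial markers.

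The genes whose levels followed each factor most closely over the 6 libraries were found by Pearson's r of log2(TPM + 1) among the genes tested. For *Osr1* they were *Mrpl3* (r = 0.994), *Col4a6* (r = 0.99) and *Gpx8* (r = 0.982). *Prrx1* was followed by *B430010I23Rik* (r = 0.977), *Lzic* (r = 0.972) and *Lgals9* (r = 0.971), and *Twist2* by *Hcfc1* (r = 0.992), *Il4ra* (r = 0.99) and *Yeats2* (r = 0.981). The closest to *Meox1* were *Abca7* (r = 0.994), *Impa1* (r = 0.991) and *Sp3* (r = 0.985), to *Meox2* *Mpzl1* (r = 0.981), *Erlec1* (r = 0.975) and *Cpxm2* (r = 0.972), and to *Osr2* *Krba1* (r = 0.981), *Ankrd17* (r = 0.979) and *Map3k5* (r = 0.969). These are the highest of 10185 genes over only 6 libraries, whose composition all genes share, and they are given as a description. No gene was among the closest 3 of more than 1 factor.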

How the data were processed

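The cDNA was amplified by SmartSeq2 and made into Nextera XT libraries. The authors aligned the reads with Bowtie2, estimated gene levels with RSEM 1.2.25 on mm10 and deposited TPM, 1 column per library, which share 1 total, so that depth is unknown. The gene annotation is not given in the sources used here. Columns were matched to libraries through their library codes. The difference in log2(TPM + 1), SHF minus CNC, was fitted by limma 3.58.1 under R 4.3.3, using lmFit and a trended eBayes. The 10185 genes tested reached 1 TPM in 3 or more libraries, and p-values were adjusted by Benjamini-Hochberg and called under 0.05. On this scale changes of low genes come out too small. On simulated data the fit recovered only 25% of 200 planted changes of 4 log2 units, so that a difference that did not pass is not read as absent.

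The 10 genes and the lists were chosen with earlier results of these data known. The genes named are the 10, the 3 most abundant of each list, the 3 closest by Pearson's r to each of the 10 that was above 0 in all libraries, and any gene called, which was none. *Pdgfra*, *Pi16*, *Clec3b*, *Serpinf1*, *Col1a2*, the list genes at 0 in all libraries, *Foxl1*, *Gm13305* and *Fxyd6* were named after their values were seen. The alternatives tried were 0.1 and 5 as pseudocounts, a filter at 5 TPM and none, median-of-ratios and quantile scaling, eBayes without a trend, library weights, a replicate block and each library left out in turn. Rescaling to the fibroblast markers and the libraries without *Xist* were added after the data were seen. Sequences and positions are from GENCODE M21 and RefSeq on GRCm38, the build called mm10. Python 3.11.15 with pandas 2.3.3, Biopython 1.88 and matplotlib 3.10.9 was used for the descriptions and plots.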

Additional observations from a re-analysis of the deposited data

How the results depend on the processing

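The difference in *Osr1* kept its direction and stayed short of the threshold under 17 of 17 alternatives, from -1.84 to -0.91, with limma adjusted p-values from 0.317 to 0.997. None of the 10 genes passed under any alternative. The count of genes higher in CNC became 1 with a pseudocount of 5 (*Gm13305*), and that of genes higher in SHF became 1 after rescaling to the fibroblast marker sum (*Fxyd6*). The number of the 10 genes whose lineages did not overlap, 1 as reported, was 2 with median-of-ratios scaling, 2 with quantile normalization, 2 with the fibroblast rescaling (*Osr1* and *Twist2*), 4 in the libraries without *Xist* and from 1 to 4 with a library left out, the highest without CNC replicate 2 (*Osr1*, *Prrx1*, *Meox2* and *Twist2*). The share of all genes tested that did not overlap, 11.8% as reported, was then 11.8%, 11.7%, 18.7%, 43.5% and from 20.1% to 25%. With libraries left out fewer values have to be separated, the cause of the rise under the fibroblast rescaling was not tested, and these counts are not read as results about the 10 genes.

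Of 119 values of the 7 tested genes under alternatives, 113 kept their direction. *Foxc2* became 0.77 with library weights and 1.07 in the libraries without *Xist*, and ran from -1.8 to 1.07 with a library left out. *Prrx1* became 0.04 and *Osr2* 0.26 after the fibroblast rescaling, both below the median of all genes, which it moved to 0.59. In the libraries without *Xist* that median was 0.26. Among the tested genes of the 3 most abundant in each list, 475 of 508 values kept theirs, and the other genes named were not recomputed as single results. The fibroblast rescaling gave 0.13 for *Meis1*, 0.52 for *Dcn* and 0.24 for *S100b*. Quantile normalization gave -0.05 for *Meis2* and 0.04 for *Dcn*, median-of-ratios scaling -0.05 for *Msx1*, and library weights -0.32 for *Meis2* and -0.1 for *Msx1*. The libraries without *Xist* gave -1.16 for *Meis2*, -0.59 for *Pknox1*, 0.49 for *Mthfsd*, -0.03 for *Msx1*, -0.01 for *Cxcl12*, 1.17 for *Lyz2*, 0.42 for *Cd14*, -0.99 for *Ngfr*, 0.34 for *Eif2s3y* and 0.39 for *Ddx3y*. With a library left out, values ran from -0.49 to 1.34 for *Meis2*, from -0.62 to 1.7 for *Pknox1*, from -1.23 to 0.53 for *Mthfsd*, from -0.59 to 0.62 for *Msx1*, from -0.17 to 0.52 for *Cxcl12*, from -0.08 to 0.39 for *Myl9*, from -0.14 to 0.55 for *Acta2*, from -2.88 to 0.07 for *Lyz2*, from -0.12 to 2.29 for *Cd68* and from -1.05 to 0.44 for *S100b*. The cause was not tested. The median of the 7 genes ran from -0.71 to -0.25 with a library left out and was -0.22 in the libraries without *Xist*. That of the homeodomain cofactors was 0.19 with quantile normalization, 0.25 with library weights and 1.24 after the fibroblast rescaling, which also gave 1.06 for the bHLH list, 1.19 for the other mesenchymal factors and 0.95 for the targets. The other mesenchymal factors had 1.11 with a pseudocount of 0.1 and 1.06 in the libraries without *Xist*.

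Both lineages use replicate numbers 1, 2 and 3, but same-numbered libraries did not deviate together (r = -0.011, -0.004 and -0.011). Under a replicate block 0 genes were called, and *Osr1* was at -1.56 with an adjusted p of 0.851. Unknown depth and frequent values of 0 limit *Twist1*, *Prrx2*, *Foxc1* and *Foxc2* in particular.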

Other observations

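*Osr1* was set against single fibroblast genes of the same library, chosen after values were seen, in the order of replicates 1, 2 and 3. Relative to *Pdgfra*, a receptor of most fibroblasts, *Osr1* was at 0.96, 1.34 and 0.3 in SHF and at 2.37, 0.97 and 1.64 in CNC, so that the lineages overlapped. Relative to 1000 TPM of *Dcn* it was at 6.96, 10.22 and 5.2 TPM in SHF and at 19.81, 16.2 and 23.04 TPM in CNC, without overlap. Relative to 1000 TPM of *Col1a1* it was at 17.79, 32.55 and 14.76 TPM in SHF and at 20.25, 32.89 and 24.18 TPM in CNC, with overlap. Relative to *Tcf21*, which was itself higher in each SHF library, it was at 0.27, 0.55 and 0.12 in SHF and at 4.14, 2.28 and 6.44 in CNC, without overlap. The share of all genes tested that do not overlap was not computed for these ratios, so that they are given as a description only.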
